A study of Mus musculus with 12 samples.

Results

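At 8 weeks of age the fallopian tubes of 1 wildtype and 1 transgenic mouse were compared over all measured genes, on 4 of the 12 arrays of the series and 2 of its 6 mice. The members are the arrays labelled wildtype at 8 weeks, repeats 1 and 2, and transgenic at 8 weeks, repeats 1 and 2. Both mice were female. The wildtype mouse was C57BL6, and the transgenic mouse was mogp-TAg on the C57BL6 background. A wildtype and a transgenic mouse of 7 weeks and of 9 weeks, also with 2 arrays each, were used only to look up the 8-week differences in other animals. The labels name no treatment. They do not say whether the 2 arrays of a mouse came from 1 RNA extract, so the spread between them may hold more than that of the measurement. With 1 mouse per genotype, the effect of the transgene and the difference between 2 individual animals cannot be told apart.

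In mogp-TAg mice SV40 large T antigen is expressed from the promoter of Ovgp1, the gene of mouse oviductal glycoprotein. That promoter is active in the secretory cells of the tubal epithelium, so the other cells of the tube, such as ciliated cells, smooth muscle and stroma, are not the intended site of the antigen. Large T antigen binds the RB family and p53. RB proteins hold E2F transcription factors in check, and E2F targets encode the machinery of DNA replication, while many genes of mitosis are repressed in resting cells through the CHR element of their promoters. The tube itself is a muscular duct lined by ciliated cells, which move the egg and tubal fluid, and by secretory cells, which make that fluid. The transgene was not analysed here.

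Ovgp1, the gene that lends the transgene its promoter, was bright in both mice, with signals of 27524 and 18154 on the wildtype arrays and 21975 and 19637 on the transgenic arrays. The groups overlapped (log2 difference -0.11). Pax8, a transcription factor of the secretory cell, read 614 and 379 in the wildtype and 742 and 596 in the transgenic mouse. The ovarian hormone subunit gene Inha, a marker of granulosa cells, stayed between 97.2 and 112 on all 4 arrays, near the array floor.

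Signals are quantile-normalized Illumina BeadChip intensities, recovered from the deposited values as given under processing. Over all probes, whose distribution this normalization makes alike on every array, the lowest normalized signal was 72.1, the 25th percentile was 123.8 and the median was 226.0. The median signal before normalization was 263.15 and 189.6 on the wildtype arrays and 331.85 and 155.45 on the transgenic arrays, higher in repeat 1. Pearson's r across probes was 0.986 between the wildtype repeats, 0.977 between the transgenic repeats and 0.928 to 0.940 between a transgenic and a wildtype array. Probes are not independent replicates, so these values only describe how alike the arrays were.

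The repeats of a mouse disagreed by 2-fold or more in few genes. In the wildtype mouse 3 genes were higher and 33 lower in repeat 2, and in the transgenic mouse 26 were higher and 74 lower. Fat genes led the wildtype list, with Adipoq, the adipocyte hormone adiponectin, at 1414 and 213 and Car3, a carbonic anhydrase abundant in fat, at 791 and 177 in repeats 1 and 2. Neutrophil genes went the other way there: S100a8, a calcium-binding protein gene, read 247 and 1244 and its partner S100a9 139.9 and 464. In the transgenic mouse Col3a1, a fibrillar collagen, read 3091 and 912, and Abcb1b, a drug efflux transporter, read 378 and 1183. Prap1 also differed between the transgenic repeats, though both stood far above the wildtype mouse. The haemoglobin gene Hbb-bt was lower in repeat 2 in both mice (log2 -1.57 and -1.45).

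**Figure D1:**
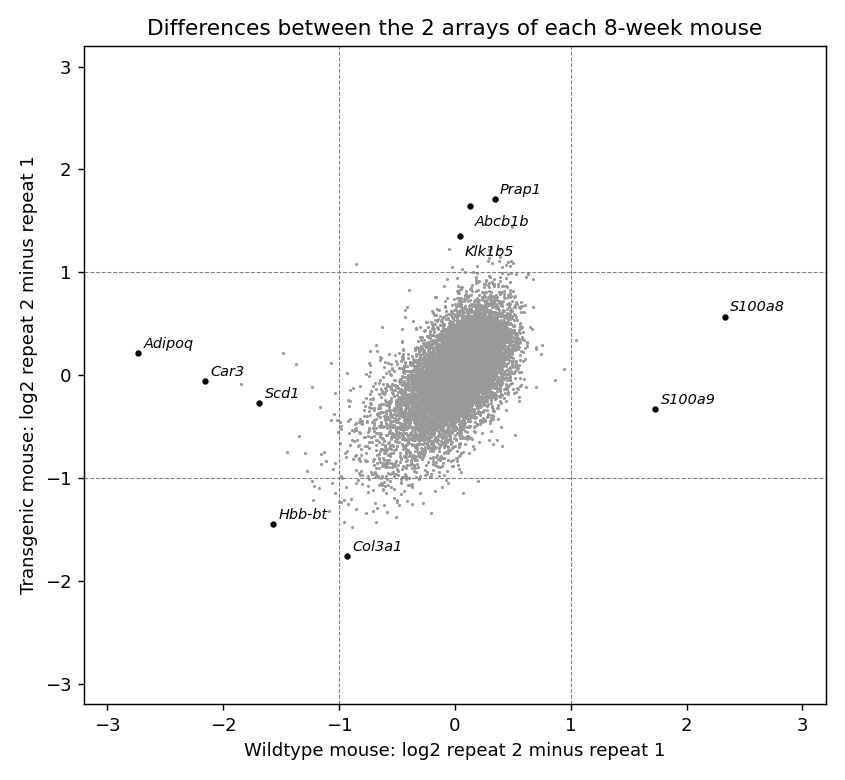
Each point is 1 of the 11229 genes, placed by the log2 difference of repeat 2 over repeat 1 in the 8-week wildtype mouse (horizontal) and in the 8-week transgenic mouse (vertical), with dashed lines at 2-fold. Adipoq, Car3 and S100a8 lie far out along the wildtype axis, Prap1 and Abcb1b high on the transgenic axis, and Hbb-bt low on both.

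A gene was therefore counted as higher or lower in the transgenic mouse only where it differed by at least 2-fold in the same direction in all 4 pairings of a transgenic with a wildtype array. By this rule 267 of 11229 genes were higher (2.38%) and 191 were lower (1.70%), with 72 and 13 past 4-fold. The median difference of all genes was -0.01. The rule is a measure of size and carries no test. Without the condition on single arrays, 394 genes were higher and 346 lower by the means of the mice. Just inside the threshold were Rfc4, a subunit of the replication clamp loader, and Mycbpap, with smallest log2 differences of 1.0007 and -1.0007, and just outside were Cdca4 (0.9996) and Cfap65 (-0.9984). The dimmer mouse read below that 25th percentile for 45 of the higher and 38 of the lower genes. Such signals lie close to the array floor, where any background left adds to both mice, so those folds may understate the difference. This was not tested.

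Prap1, which encodes a proline-rich protein secreted by the uterine epithelium of the mouse, showed the largest difference of all. Its signal was 127 and 161 in the wildtype and 5041 and 16459.9 in the transgenic mouse, a 63.8-fold difference that ran from 31.3 to 129.8 over the 4 pairings. Among the higher genes, those of cell division followed. Prc1, which bundles the microtubules of the spindle midzone, read 729.9 and 599 against 7074 and 6889.9, or 10.6-fold. Top2a, a topoisomerase that resolves entangled DNA ahead of chromosome separation, read 241 and 273 against 2517 and 2653, or 10.1-fold. In both genes the repeats of a mouse lay close together and the mice far apart. Kif23, a kinesin of cytokinesis, Pbk, a mitotic kinase, Rad54b, a recombination factor, and Cenpa, the histone that marks centromeres, were each between 8.31- and 9.02-fold higher.

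The higher genes outside cell division and repair were of several kinds. Oas2, an interferon-induced sensor of double-stranded RNA, read 267 and 268 against 2075 and 2458. Cdh16, a cadherin of tubular epithelia, read 156 and 135 against 1089 and 1115, and Guca2b, the precursor of the peptide uroguanylin, 386 and 408 against 2777 and 3136. All 3 were more than 7-fold higher, with groups that did not overlap. Klk1b5, a kallikrein, was also higher, at 254 and 262 against 1099 and 2812, but belongs to a family of near-identical genes whose signals a probe may mix.

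The lower genes were led by secreted proteins of the tube. Dcpp2 and Dcpp3, of the demilune cell and parotid protein family, which the mouse oviduct secretes, read 2036 and 3058 and 1718 and 2552 in the wildtype mouse. On the transgenic arrays they read 101 and 135 and 86.8 and 132, at or near the floor, so their folds of 21.4 and 19.5 may understate the difference. The family members are near-identical, and whether the probes tell them apart was not tested. Serpinb11, a serpin, read 969.7 and 1150.0 against 93.4 and 139, Mmd2 1163 and 964 against 87.4 and 89.3, and Timp4, an inhibitor of metalloproteases, 916 and 999 against 113 and 149. On the transgenic arrays none of these 5 genes read above 149, against at least 916 on the wildtype arrays. Spon2, a matrix protein, remained bright while lower, at 5725 and 6057 against 736 and 926. Ghrh, which encodes growth hormone-releasing hormone, read 809.5 and 1119 against 103 and 151, and Gas6, a ligand of the TAM receptor kinases, 6794 and 6254 against 1143 and 1370.2.

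**Figure D2:**
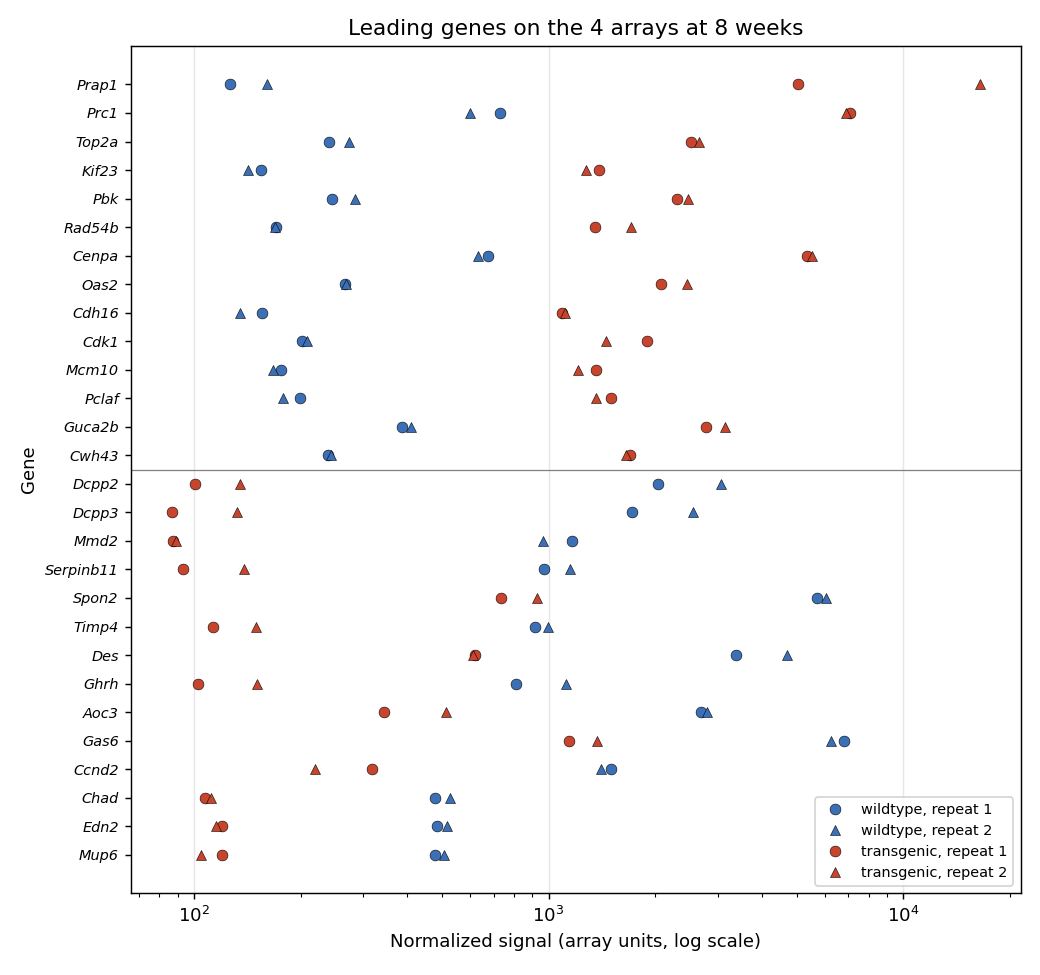
Normalized signals (horizontal, log scale) of the 14 genes with the largest smallest difference over the 4 pairings in each direction, with 1 point per array, blue for wildtype and red for transgenic, circles for repeat 1 and triangles for repeat 2. The colours do not overlap in any of these genes, which follows from the rule that chose them, and Prap1 shows the widest gap between repeats, at 5041 and 16459.9.

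The 27 of 31 measured genes of the mitotic spindle and chromosome segregation that were higher stood against the 2.38% of all genes, and 0 were lower. This list and those below were chosen with earlier results of these data known, so such shares only describe the lists. The list's median log2 difference was 2.30, from 0.29 in Smc2, a condensin subunit, to 3.40 in Prc1. The other genes short of the rule were Ube2c, Ttk and Spc24. Members included the kinases Cdk1 (202 and 208 against 1889 and 1448), Plk1 (log2 2.55) and Aurka (2.30). Foxm1, a transcription factor of mitotic genes and itself a member of this list, was higher by log2 1.99. Its part in the other differences was not tested. In these bulk tubes a larger number of dividing cells and more RNA per cell cannot be told apart, and the same holds for every cell type below.

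Of 42 measured genes of DNA replication and E2F targets, 34 were higher and 0 lower, with a median of 1.80. Mcm10 and Mcm5, which act in loading and running the replicative helicase, read 176 and 167 against 1363 and 1215 and 586 and 570.2 against 4490.3 and 3818. Pclaf, a partner of the replication clamp, read 199 and 178 against 1502 and 1359.6, and E2f1, the transcription factor freed when RB is bound, 225 and 252 against 1448 and 1394. All 6 subunits Mcm2 to Mcm7 were higher, by log2 1.93 to 2.84. The smallest differences were those of E2f7 (0.15) and Ccne1 (0.19). Genes of DNA damage response and repair followed with 11 of 23 higher, 0 lower and a median of 1.19. Rad54b, Clspn, which relays the replication checkpoint, and Rad54l led this list, at log2 3.16, 2.56 and 2.38. Among the rest, Chek2, a checkpoint kinase, stood at -0.68, and Brca1 at 0.54.

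Genes around RB and p53 themselves differed less. Of 25 measured members 2 were higher and 2 lower, with a median of 0.12 that was -0.014 against all 6 wildtype arrays. The higher ones were Gtse1, a cell cycle protein that restrains p53 (168 and 185 against 783 and 849), and the repair gene Ddb2. The lower ones were cyclins of the D type, partners of the kinases that phosphorylate RB: Ccnd2 read 1502 and 1401 against 318 and 220.3 and Ccnd1 3735 and 4036 against 1124 and 1347. Ccnd3 pointed the same way at log2 -1.05, short of the rule. The p53 targets Cdkn1a and Mdm2 stood at log2 0.25 and 0.04, while Ddb2, also a p53 target, was higher. Other p53 targets of the list, such as Ccng1, Sesn1 and Zmat3, were measured, and their values are not given here. Rb1 stood at log2 0.67. Cdkn2a, the source of the inhibitors p16 and ARF, stood at 0.67 from 96.3 and 93.1 to 144 and 158, near the floor.

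Promoter letters of leading division genes that hold a match are shown. RB-family complexes act on many division genes through E2F sites and the CHR element. Whether they act through the letters shown here was not tested. Sequences run from 250 bases before to 50 bases after the gene's start in RefSeq, build GRCm38.p6, and each line below is the stretch around the match nearest the start, 30 bases each side where the window allows, 5′ to 3′ on the gene's strand. The search covered both strands. Capitals mark the CHR element, TTTGAA, in the first 5 lines and the E2F site in the last 2, which was searched in the forms TTCCCGC and TTCGCGC as well as TTGGCGC and also TTGCCGC. None of these motifs contains another.
Prc1 (chr7:80294416-80294481, plus strand): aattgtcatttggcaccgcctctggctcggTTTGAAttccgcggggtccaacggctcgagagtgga
Top2a (chr11:99024177-99024242, minus strand): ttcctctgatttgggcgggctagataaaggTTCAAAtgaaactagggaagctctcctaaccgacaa
Kif23 (chr9:61946762-61946827, minus strand): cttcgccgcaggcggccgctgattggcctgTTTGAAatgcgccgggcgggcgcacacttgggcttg
Cenpa (chr5:30666872-30666935, plus strand): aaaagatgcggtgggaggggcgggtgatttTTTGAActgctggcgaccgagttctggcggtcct
Cdk1 (chr10:69352892-69352957, minus strand): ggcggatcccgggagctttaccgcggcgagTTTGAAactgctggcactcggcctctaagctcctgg
Cdk1 (chr10:69353006-69353072, minus strand): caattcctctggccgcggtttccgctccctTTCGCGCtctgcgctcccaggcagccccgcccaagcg
Pclaf (chr9:65890288-65890354, plus strand): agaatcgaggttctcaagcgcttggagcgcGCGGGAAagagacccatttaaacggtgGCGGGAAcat
The CHR letters of Prc1, Top2a, Cdk1, Kif23 and Cenpa began 5, 23 and 15 bases before and 2 and 16 bases after the start, in that order. Cdk1 held both kinds of match, the E2F one 130 bases before the start. Prc1, Top2a, Kif23 and Cenpa had no E2F match in the window, Pclaf no CHR match, and Mcm10 neither.

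Over the 9067 measured genes with a promoter in the table, 14.7% held the CHR letters and 17.9% an E2F site. Among the higher genes the shares were 28.3% and 36.3% (60 and 77 of 212), and among the mitotic and replication members that were higher 44.2% for each (23 of 52). The lower genes held them in 18.4% and 13.5% (26 and 19 of 141). These are shares of letters in a window, given with no test. The replication list was named for E2F targets, so an E2F share above that of all genes is no separate result for its members.

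The interferon response was the other large group that was higher. Of 32 measured members 18 were higher and 0 lower, and all 32 pointed up, with a median of 1.46. Ifit3, an interferon-induced protein with antiviral activity, read 449 and 499.6 against 3106 and 6206, and Isg15, a ubiquitin-like modifier, 251 and 305 against 1555 and 2219.6. The groups did not overlap in either gene, and both were highest in transgenic repeat 2. Irf7, a transcription factor that amplifies the response, was higher by log2 2.36, Rsad2 by 2.52 and the chemokine Cxcl10 by 1.76. Ifih1, an RNA sensor, and Bst2 stood at 0.07 and 0.12. Compared with the other transgenic mice, 28 of the 32 members had a higher mean at 8 weeks (median 0.38 above), as did 50.8% of all genes. In 12 of the 32 both 8-week arrays exceeded all 4 of theirs, which held for 3.47% of all genes. The 8-week wildtype mouse differed from the other wildtype mice by a median of -0.14 over this list. Set against all 6 wildtype arrays, 8 members passed the 2-fold rule, which then demands 12 pairings.

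Promoters of the 2 leading interferon genes in the table are shown with every match to GAAANNGAA, the core of the interferon-stimulated response element, in capitals.
Ifit3 (chr19:34583397-34583465, plus strand): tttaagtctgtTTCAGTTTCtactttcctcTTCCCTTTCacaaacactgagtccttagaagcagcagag
Isg15 (chr4:156200846-156200914, minus strand): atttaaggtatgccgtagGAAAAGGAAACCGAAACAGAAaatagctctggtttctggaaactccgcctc
The Ifit3 stretch holds 2 matches and that of Isg15 holds 3 that overlap. Of the higher interferon members with a promoter, 8 of 13 held a match (61.5%), against 8.86% of all genes. The list was made of known interferon-induced genes, so a share above that of all genes is no separate result. No test was made of it.

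Genes of antigen presentation split by class. Of 23 measured members 9 were higher and 0 lower, with a median of 0.47 that was 0.79 without transgenic repeat 1. The higher ones belong to class I presentation: H2-Q7 (345 and 272 against 1225 and 1465), H2-T23 (795 and 789 against 2191 and 2859), H2-K1, H2-D1, B2m, Tap1, Psmb8, Psmb9 and the class I activator Nlrc5 (136 and 148 against 339.9 and 429). Class II genes stood below 0, with H2-Ob at log2 -0.96, H2-Aa at -0.91 and the class II activator Ciita at -0.32, none past the rule. Class I genes are similar in sequence, so a probe may read more than 1 of them. Against all 6 wildtype arrays 2 of the 23 passed.

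A list of oviduct proteins had 6 of 26 measured members lower and 2 higher. Its median was -0.35 against -0.01 over all genes, of which 1.70% were lower. The list holds not only secreted proteins but also transcription factors such as Pax8, the keratin Krt7 and membrane proteins such as Cftr and Slc26a4. Besides Dcpp2, Dcpp3 and Serpinb11, the lower ones were Dcpp1 (log2 -2.30), Wfdc1 (-1.54), a whey acidic protein domain protein, and Chad, the matrix protein chondroadherin (479 and 526 against 107 and 112). The higher ones were Slc26a4, the anion exchanger pendrin (116 and 130.1 against 586 and 638), and Serpina1e, an alpha-1-antitrypsin gene (3952 and 4879.8 against 12820.3 and 12448). In Serpina1e the wildtype mouse was the one that differed: the other wildtype arrays read 11664 and 14788 at 7 weeks and 8535 and 8588 at 9 weeks. Serpina1 genes are also near-identical copies.

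Markers of epithelium in general were level, with 1 of 24 higher, 0 lower and a median of 0.12. The higher one was Cdh16. Cldn4, a claudin, stood at log2 1.35, Cdh1 at -0.14 and Krt23, a keratin, at -1.07, none of them past the rule. Genes regulated by estrogen and progesterone held 1 higher member, Prap1, and 2 lower ones out of 26, with a median of -0.20 that was 0.015 against all 6 wildtype arrays. The lower ones were Ramp3, a co-receptor of the adrenomedullin receptor (1188 and 1510.0 against 319 and 378), and Aqp5, a water channel (1226 and 1006 against 458 and 424). The receptors Esr1 and Pgr differed by log2 -0.18 and -0.31. Ramp3 is also 1 of the genes in which the 8-week wildtype mouse stood apart from the other wildtype mice, and neither lower member passed against all 6 wildtype arrays.

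Ciliated cell genes were lower. Of 33 measured markers 9 were lower and 0 higher, 32 pointed down, and the median was -0.76. Cdhr3, a cadherin-related protein of ciliated cells, read 2478 and 2628 against 413 and 828. Dnaic1, an intermediate chain of the outer dynein arm, read 721 and 691 against 149 and 225, and Rsph1, a radial spoke protein, 3449 and 4239 against 739 and 1712. In all 3 genes transgenic repeat 1 was the lower repeat and both repeats lay below the wildtype arrays. The ciliary regulators Foxj1 and Mcidas were close to level: Foxj1, the master factor of motile cilia, stood at log2 -0.24, and Mcidas, which starts the multiciliated programme, at -0.05. Their signals were low, with Foxj1 at 186 and 195 against 144 and 180.0. The regulators Rfx2, Rfx3 and Ccno were also measured, and their values are not given here.

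RFX factors drive ciliary genes through the X-box, and its half-site GTTNCCNNG is shown in capitals in the promoters of the 2 leading ciliary genes in the table.
Cdhr3 (chr12:33092846-33092914, minus strand): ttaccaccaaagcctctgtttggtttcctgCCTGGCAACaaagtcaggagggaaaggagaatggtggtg
Dnaic1 (chr4:41569749-41569817, plus strand): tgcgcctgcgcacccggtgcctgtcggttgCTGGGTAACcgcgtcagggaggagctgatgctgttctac
Of the lower ciliated cell markers with a promoter, 6 of 7 held these letters, against 21.7% of all genes. The list was made of known ciliary genes, so this share is no separate result either, and no test was made of it. The capitals in these lines stand on the strand opposite to the motif as spelled.

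Muscle, stromal and surface markers were also lower in part. Of 21 smooth muscle markers 7 were lower and 0 higher (median -0.63). Des, the intermediate filament desmin, read 3369.5 and 4687 against 619 and 611, Aoc3, an amine oxidase of muscle and vessels, 2697 and 2796 against 344 and 515, and Synm, the filament protein synemin, 1052 and 992 against 298 and 214. Acta2, the actin of smooth muscle, stood at log2 -0.16 and Hspb6 at 0.24, so the members did not move as 1. Of 11 mesothelial markers 3 were lower (median -0.89), with Wt1, a transcription factor of mesothelium and stroma, at 3627 and 2761 against 532 and 945 and the uroplakin gene Upk3b at 1181 and 1455 against 417 and 509.6.

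Fibroblast and matrix genes were lower in 8 of 29 members and higher in 1 (median -0.64). Dpt, the matrix protein dermatopontin, read 1710.1 and 1370.2 against 485 and 289, and Col6a2, a collagen VI chain, 3163 and 3723 against 838 and 919. The higher member was Fbln1, the matrix protein fibulin-1, at 1389 and 1294 against 3123 and 3328. In both Col6a2 and Fbln1 the wildtype mouse of 8 weeks lay outside the other wildtype mice, which read 4361 and 3385 at 7 weeks and 3056 and 2559.8 at 9 weeks for Fbln1. Against all 6 wildtype arrays 2 fibroblast members and 4 smooth muscle members passed as lower.

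Adipocyte markers were lower in 4 of 15 members. Their median of -0.44 was -1.06 without wildtype repeat 2 and -0.26 without wildtype repeat 1. Plin4, a coat protein of lipid droplets, read 777 and 371 against 117 and 127, and Car3 791 and 177 against 84.3 and 81.0. Adipoq missed the rule because of the gap between its wildtype repeats. Between the 2 wildtype arrays Adipoq and Car3 differed by log2 -2.73 and -2.16, which is close to the differences between the mice of -2.43 and -2.18. The part of fat in the other differences was not tested. Against all 6 wildtype arrays 2 adipocyte markers passed.

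Few immune and vascular markers passed the rule, though several of these lists pointed mostly one way. Of all genes 2.38% were higher and 1.70% lower, and 5439 of 11229 pointed up. Lists this small are expected to hold few or no calls at those shares. Macrophage and dendritic cell markers had 2 of 18 members higher, Ms4a7 (354 and 310.4 against 1003 and 1265) and the lipopolysaccharide co-receptor Cd14 (536 and 469.6 against 1398 and 1356), and a median of 0.53. Of the 18 members 16 pointed up, and the scavenger and mannose receptors Cd163 and Mrc1 were the 2 that pointed down, at log2 -1.10 and -1.10. Ccl5, a chemokine, was the 1 lymphocyte list member of 13 that was higher, and 10 of the 13 pointed up (median 0.11). No neutrophil marker of 13 and no erythroid marker of 3 passed. Of 21 endothelial markers 16 pointed down, with a median of -0.40, close to that of the adipocyte list. The endothelial factor Sox18 was the 1 lower member (895 and 681 against 254 and 197), and Inhbb, an activin subunit, was the 1 lower ovarian marker of 18.

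No gene of the 3 housekeeping and stress lists passed the rule, against 2.38% of all genes higher and 1.70% lower. Of 39 oxidative phosphorylation genes 34 pointed down, with a median of -0.33 and Ndufb5, a complex I subunit, at the low end (log2 -0.93). Of all 11229 genes 5439 pointed up. The median of the oxidative phosphorylation list was -0.16 at 7 weeks and -0.05 at 9 weeks. Over this list the 8-week wildtype mouse stood a median of 0.21 above the other wildtype mice. The 22 ribosomal protein genes had a median of -0.10 and ran from -0.70 in Rplp0 to 0.20. The 23 immediate early and heat shock genes had a median of 0.11, with Hsph1, a chaperone, at -1.12 and Fos at -0.26.

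**Figure D3:**
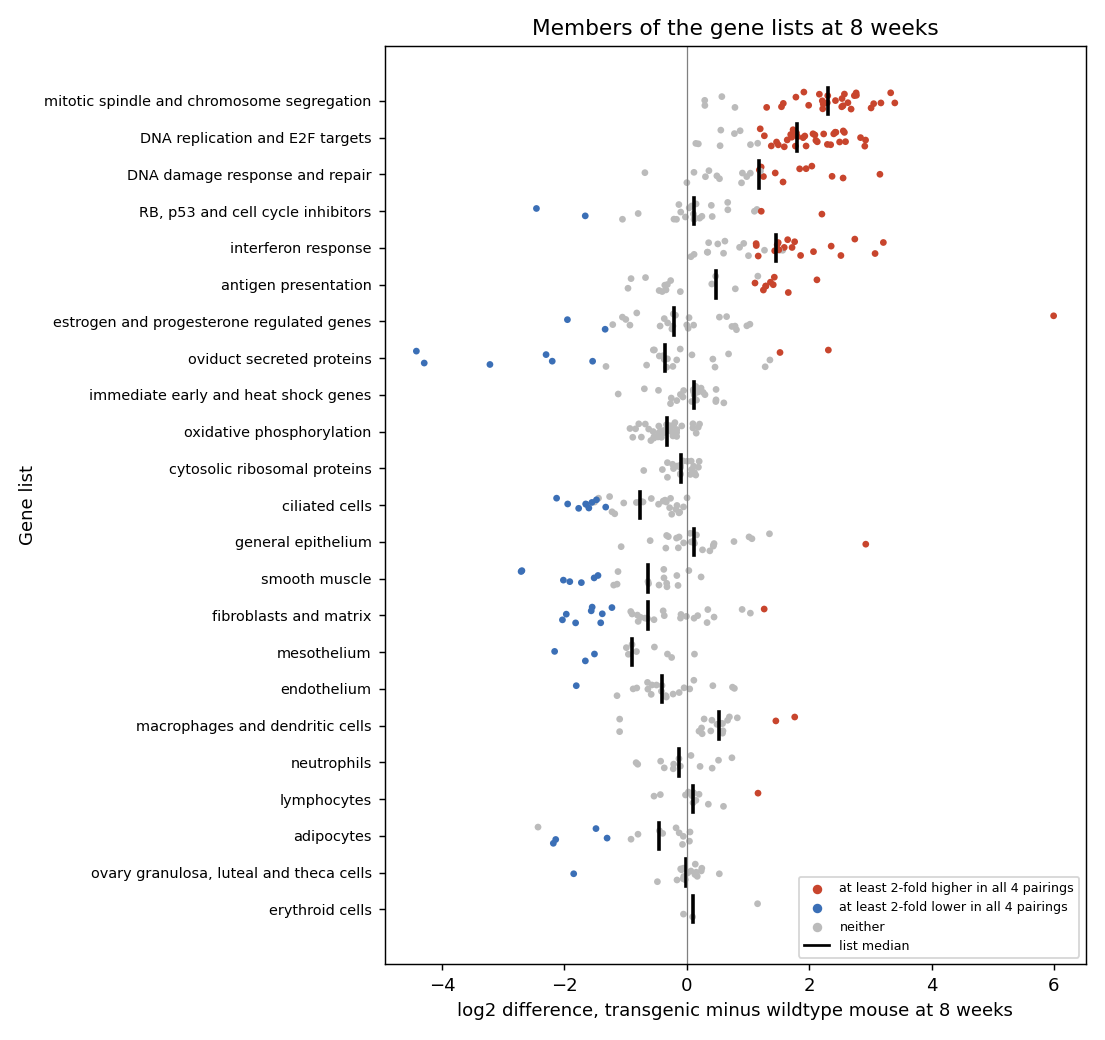
Each point is 1 member of a gene list, placed by its log2 difference between the transgenic and the wildtype mouse at 8 weeks, red where at least 2-fold higher and blue where at least 2-fold lower in all 4 pairings, with a black bar at the list median. The mitotic, replication and interferon lists lie to the right, with medians of 2.30, 1.80 and 1.46, and the ciliated, smooth muscle, fibroblast and mesothelial lists extend to the left.

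The 7- and 9-week mice share no array with the 8-week comparison. A limma test of 2 transgenic against 2 wildtype mice of those ages gave 453 genes higher (4.03%) and 530 lower (4.72%) at an adjusted p below 0.05. Of the 267 genes higher at 8 weeks 220 were among the 453, which is 82.4% of the former and 48.6% of the latter, and 263 pointed the same way. Of the 191 lower genes 122 were among the 530, or 63.9% and 23.02%, and 186 pointed the same way. The higher genes had a median difference of 1.45 at 7 weeks, 1.75 at 8 weeks and 1.74 at 9 weeks, and the lower genes -1.16, -1.60 and -1.58. At 8 weeks the medians are those of genes chosen for their size there.

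Cell division genes were higher in those mice too. Top2a differed by log2 3.58 (SE 0.27, adjusted p = 0.00895 by limma over 2 mice of each genotype) and Rad54b by 3.01 (SE 0.18, limma adjusted p = 0.00696). Of the mitotic list 27 rose in the 7- and 9-week mice and of the replication list 35, with 0 falling in either. Dcpp2 fell (log2 -5.00, SE 0.45, limma adjusted p = 0.0122), and 22 of 33 ciliated cell markers fell, against 4.72% of all genes by the same test. The median ciliated difference was -0.85 at 7 weeks and -1.26 at 9 weeks. The interferon list had 15 members that rose and medians of 0.97 and 0.63 at 7 and 9 weeks, with 26 of its 32 members larger at 8 weeks than at both. The same held for 33.01% of all genes and for 41.2% of the 267 genes higher at 8 weeks. For Ifit3 the difference was 2.02 (SE 0.35, limma adjusted p = 0.0343). Fibroblast genes had medians of -0.33 and 0.08 at 7 and 9 weeks, with 3 that fell and 1 that rose. Cwh43, Aoc3, Gas6, Ccnd2, Chad and Edn2, among the 28 leading genes at 8 weeks, did not pass in the other mice (adjusted p = 0.125, 0.0592, 0.0773, 0.0645, 0.0803 and 0.257, limma).

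**Figure D4:**
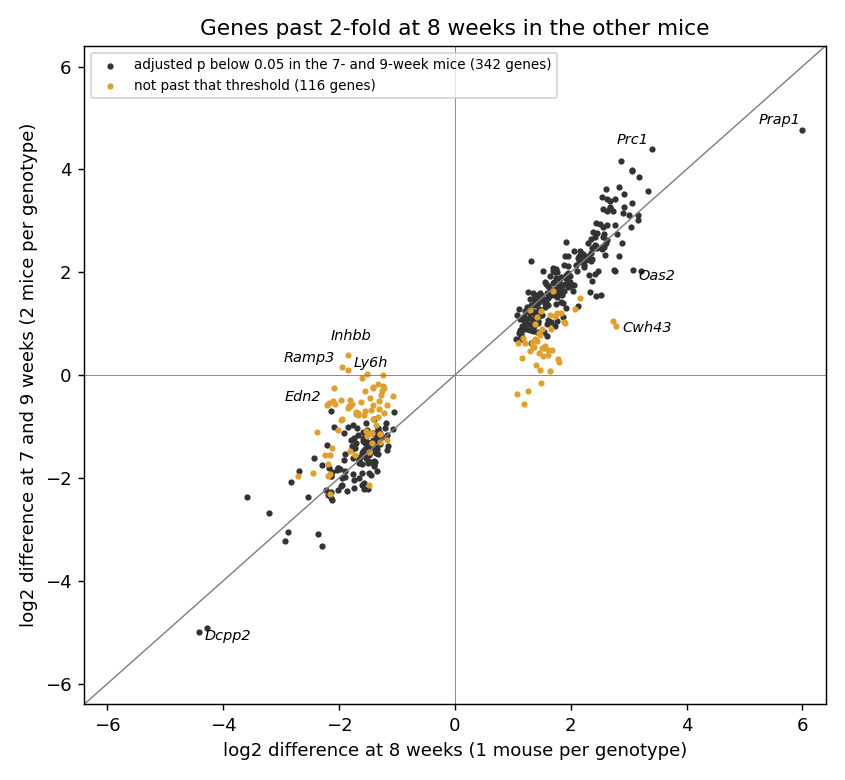
Each point is 1 of the genes at least 2-fold higher or lower in all 4 pairings at 8 weeks, placed by its log2 difference at 8 weeks (horizontal) and in the 7- and 9-week mice (vertical), dark where the latter passed the limma test, with the line of equality. Most points lie in the upper right or lower left, 263 of 267 and 186 of 191, while Ly6h, Ramp3 and Inhbb lie near or past 0 on the vertical axis.

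The 8-week difference was then set against the spread of the mice of other ages, as if the 8-week mice varied like them. By this limma fit, with 2 residual degrees of freedom, 27 genes were higher (0.24%) and 6 lower (0.0534%), all of them past the 2-fold rule, with 2042 genes at an unadjusted p below 0.05 and a lowest adjusted p of 0.0452. Among the named genes, Rad54b, Clspn, Gtse1, Des, Edn2 and Mup6 stood at that value. The call rests on few degrees of freedom and moves with the processing: it gave 0 genes on the deposited values and 0 with the mean of all probes of a gene.

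Whether any 8-week difference departed from that at 7 and 9 weeks was tested in the same limma fit. At an adjusted p below 0.05 0 genes passed (0.0%), with 322 genes at an unadjusted p below 0.05 and a lowest adjusted p of 0.9998. This does not show that the ages are alike. The lowest unadjusted p-values belonged to genes in which 1 mouse differed. Ly6h, a GPI-anchored protein, read 1738 and 1448 on the 8-week wildtype arrays, 380.0 and 532 and 430.3 and 413 in the other wildtype mice and 503 and 385 in the 8-week transgenic mouse (departure -1.95, SE 0.21). Edn2, the vasoconstrictor endothelin 2, read 485 and 518 in that wildtype mouse and between 152 and 171 in the others. Aqp8, a water channel, was high in every transgenic mouse and read 519 and 461 in the 8-week wildtype mouse against 110.4 and 124 and 135 and 136 in the others, so its 8-week difference was 0.65 where those at 7 and 9 weeks were 2.65 and 2.60. In these 3 genes the wildtype mouse was the one out of place.

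Counted over all genes, the 8-week wildtype mouse was at least 2-fold above all 4 other wildtype arrays in 13 genes and below them in 6. Those above were S100a8, Ramp3, Arg1, Aqp8, Ly6h, Bcat1, Rapgefl1, Inhbb, Edn2, Ccl11, Sdk1, Car12 and Chst8, and those below were Gpnmb, Cwh43, Plekhs1, Fxyd4, Spink8 and Cyp2f2, named because the mouse stood apart in them. The transgenic mouse of 8 weeks stood apart from the other transgenic mice in 0 genes in either direction. For comparison the counts were 3 and 9 for the wildtype mouse of 7 weeks, 3 and 2 for that of 9 weeks, 22 and 4 for the transgenic mouse of 7 weeks and 0 and 0 for that of 9 weeks. Of the genes past the rule at 8 weeks, 5 of the higher and 6 of the lower are ones in which the wildtype mouse was apart on that side. Cwh43 is 1 of them: it read 239 and 244 in the 8-week wildtype mouse, 878 and 1263 and 746 and 564 in the others, and 1697 and 1651 in the transgenic mouse. Inhbb read 984 and 915 against 334 and 359 and 253 and 271.

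Cell division genes stood higher in that wildtype mouse as well. Of the 31 mitotic genes 26 had a higher mean there than in the other wildtype mice (median 0.36), against 47.2% of all genes, and in 22 both arrays exceeded all 4 others, as did 1290 of all genes (11.5%). Top2a read 241 and 273 there and 118 and 151 and 160.2 and 165 in the others. The transgenic values of Top2a were 2517 and 2653 at 8 weeks, and 27 mitotic genes passed the rule against all 6 wildtype arrays as well.

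**Figure D5:**
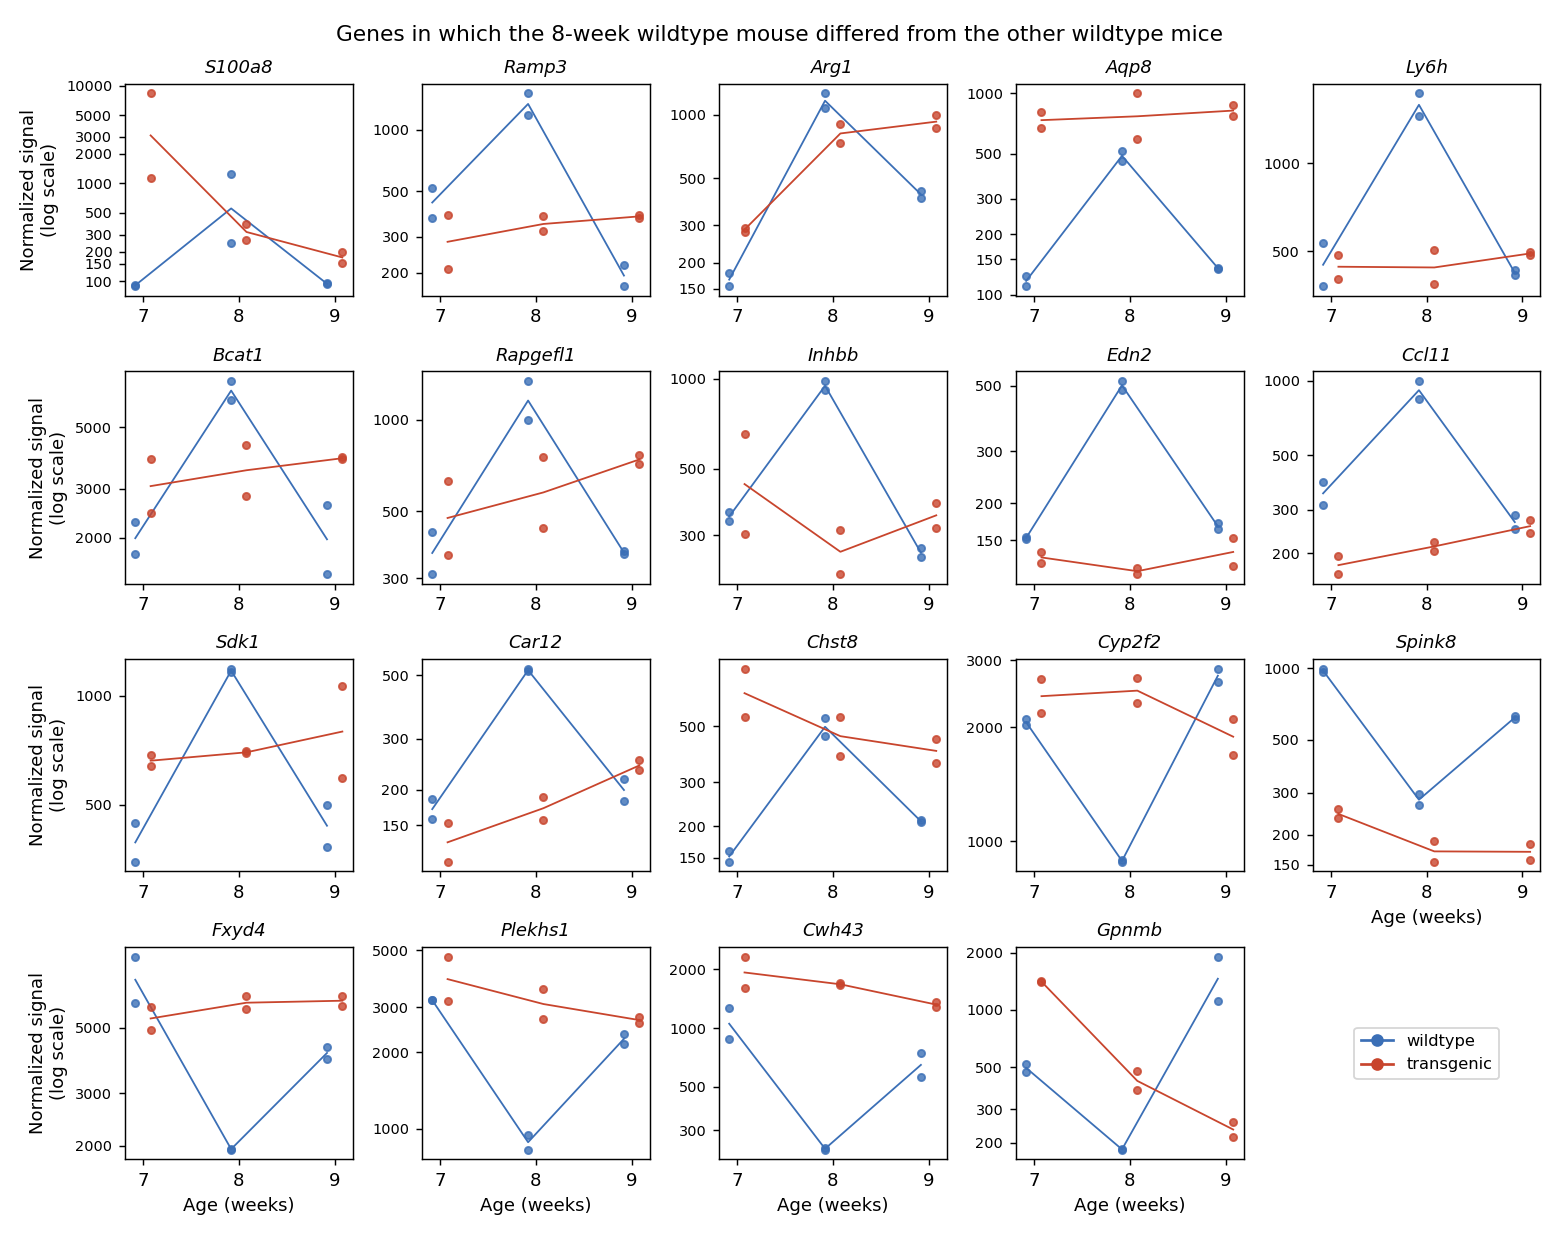
Normalized signal (vertical, log scale, own range per panel) against age in weeks for the 19 genes in which the 8-week wildtype mouse was at least 2-fold above or below all other wildtype arrays, with 1 point per array and lines through the mean of each mouse, blue for wildtype and red for transgenic. The genes were chosen for the wildtype value at 8 weeks. In Ly6h, Edn2 and Inhbb the transgenic mice lie near the other wildtype mice, and in Aqp8 and Cwh43 they lie above them.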

How the data were processed

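Total RNA of whole fallopian tubes was labelled and hybridised to 1-colour Illumina mouse BeadChips, 2 arrays per mouse, per the labels' protocols. GenomeStudio 1.6.0 was used, per the submitters' processing notes. What the authors deposited is a score per probe, standardized within every array. Scale and centre of each array were solved from the regular grid of its low values, which turned 100% of the values on every array into signals with 1 decimal, within 0.01 of the last digit. That the standardization acted on a log of the signal follows from this solution, which does not settle the base of the log. The sources used here do not give whether background had been subtracted. The medians of the deposited columns at 8 weeks were 0.143 and 0.0788 for the wildtype and 0.222 and 0.0205 for the transgenic arrays. The direction of the values is settled, since the recovered signals rise with the score. A scanner table of the series has 24 columns whose names match no single sample, and it was not used. Detection calls were therefore not used either.

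Of 25697 probes listed, 9033 were blank on all arrays and 16664 were tested. Of these, 15687 had 1 gene symbol in the platform annotation, 977 had none, and 15679 were matched to the current gene table (GRCm38.p6). For each of the 11229 genes the probe brightest on average over the 12 arrays was kept. Of 3115 genes with several probes, 146 passed the 2-fold rule, 42 of them with every probe alike, and 0 had probes past it both ways. Signals were quantile-normalized and log2-transformed without an offset (limma 3.58.1 in R 4.3.3). Other steps used Python 3.11.15 with numpy 2.4.6, pandas 2.3.3 and matplotlib 3.10.9.

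The 8-week difference is the difference of the mouse means with its range over the 4 pairings of arrays. The 3 limma tests (lmFit and eBayes, two-sided, Benjamini-Hochberg adjusted over all probes, threshold 0.05) used mouse means: the 7- and 9-week mice alone, the 8-week difference against the spread of those mice, and the departure of the 8-week difference from theirs. Each had 2 residual degrees of freedom, and p-values measure the spread between these few mice, who differ in age. The fits were tested on simulated data with independent noise and no age effect, which does not vouch for them in mice of different ages. The number of arrays limits the precision. The repeat numbers pair arrays across mice: after removal of each mouse's mean, arrays of 1 number correlated at 0.567 between the 8-week mice and at 0.109 to 0.638 over all 15 pairs of mice. With arrays paired by repeat number in the 2-fold rule, 307 genes were higher and 258 lower at 8 weeks.

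The 23 gene lists and the rule for named genes were chosen with earlier results of these data known. Named were the 14 genes each way with the largest smallest difference over the pairings, up to 5 members of each list, the 4 lowest p each way for the departure, the 5 largest differences each way between the repeats of each mouse, and 14 fixed genes. List members outside it were named after their values were seen. Promoters were matched by symbol for 9067 genes. Alternatives covered normalization, background, the deposited values, a filter on dim probes, the probes of a gene, the fold, the pairing, array weights and single repeats.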

Additional observations from a re-analysis of the deposited data

Results flagged for a closer look

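Foxq1 and Edn1 stood higher in the transgenic mouse in every pairing of arrays at 8 weeks and lower in every pairing at 7 and at 9 weeks. Foxq1, a forkhead transcription factor, read 127 and 158 in the wildtype and 225 and 367 in the transgenic mouse at 8 weeks, a log2 difference of 1.021, against -0.49 at both other ages. Edn1, the vasoconstrictor endothelin 1, read 454 and 428 against 705 and 844, a log2 difference of 0.8069, against -0.40 at 7 weeks and -0.47 at 9 weeks. Neither difference between ages passed the limma test of the departure, whose lowest adjusted p over all genes was 0.9998. In Foxq1 the 8-week wildtype arrays lay below those of the other wildtype mice, which read 342 and 301 at 7 weeks and 291 and 329 at 9 weeks.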

How the results depend on the processing

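No gene or count that was called turned its direction under the alternatives that were run, but list medians near 0 did. Of 23 list medians 17 moved by over 1.5 times under at least 1 alternative, and 5 of these changed sign: RB and p53 (-0.014 to 0.17), estrogen and progesterone (-0.22 to 0.015), neutrophils (-0.37 to 0.14), ovary (-0.23 to 0.30) and erythroid cells (-0.12 to 0.63). The adipocyte median ran from -1.11 to -0.26, antigen presentation from 0.25 to 0.79, ciliated cells from -1.18 to -0.66 and smooth muscle from -1.12 to -0.60. The mitotic (2.17 to 2.64), replication (1.48 to 2.02), repair (0.998 to 1.40), interferon (1.19 to 1.52), fibroblast (-0.78 to -0.47) and mesothelial (-1.10 to -0.77) medians stayed within 1.5 times. Counts of called list members moved by over 1.5 times in 63 cases and did not in 443. At a threshold of 1.5-fold 556 genes were higher and 527 lower at 8 weeks, and at 4-fold 72 and 13. By the means of the mice alone 346 were lower. All 6 transgenic arrays against the 8-week wildtype arrays gave 146 and 95, and the 8-week transgenic arrays against all 6 wildtype arrays gave 190 and 108, 2 settings chosen after seeing the data that demand more pairings. Leaving out 1 of the 4 arrays gave 297 to 386 higher and 264 to 303 lower genes, the 303 without repeat 2 of the transgenic mouse. Normalization, background correction, the deposited values, the filter on dim probes and the mean of all probes gave 233 to 314 higher and 169 to 240 lower. The counts against the spread of the other mice were the least stable: 41 higher and 20 lower with median scaling, 174 and 95 with normexp, 174 and 98 without the dimmest probes, 0 and 0 on the deposited values, 0 and 0 with the mean of all probes, 591 and 579 with the replicate block, 69 and 17 without repeat 1 of every mouse and 0 and 0 without repeat 2. The cause was not tested. The limma fits with the replicate block took single arrays as units instead of mouse means. The repeat number was a term, and the arrays of a mouse were treated as correlated. Repeats of a mouse thus added degrees of freedom that the main fit does not have. The departure gave 0 genes throughout, apart from 1 lower with the replicate block. In the 7- and 9-week mice the replicate block gave 876 higher and 1067 lower, repeat 2 alone 343 and 385, and repeat 1 alone 290 and 283. Genes past the rule and called in those mice numbered 192 to 239 higher and 99 to 155 lower under all settings. Array weights came out equal for both arrays of a mouse, so the mouse means and every count stayed the same by construction. They are no check of the results. Signals near the array floor limit the folds of dim genes.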
